A study of Mus musculus with 4 samples.

Results

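The genes described here are 10 that code for proteins of mouse milk or of the milk fat globule, Csn1s1, Csn1s2a, Csn2, Csn3, Lalba, Wap, Glycam1, Trf, Xdh and Btn1a1, chosen by symbol out of 27998 genes in the deposited count tables and read in glands before pregnancy. The measurements were single-cell RNA sequencing counts of molecules (UMIs, 10x Genomics Chromium) in total mammary epithelium, the sorted Lin- CD24+ cells of FVB/NJ female mice that received no treatment. Each of 3 stages had 1 library made from more than 1 mouse: puberty at 5 weeks of age, adult in estrus at 10 weeks, and adult in diestrus at 10 weeks. The question was in which epithelial lineage these genes were expressed before pregnancy, how far their level moved with stage, and how much of their signal appeared in basal cells. With 1 library per stage no test between stages was possible, and intervals on counts, shares and ratios (95%) cover counting error only.

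Milk is made by the secretory alveolar cells of the gland, which arise in pregnancy from luminal progenitor (LP) cells. The caseins are its main proteins and pack calcium and phosphate into micelles, with kappa-casein (Csn3) at the micelle surface. Alpha-lactalbumin (Lalba) is the regulatory part of lactose synthase, Wap is whey acidic protein, Glycam1 is a mucin-like secreted protein and Trf is the iron carrier transferrin. Xanthine dehydrogenase (Xdh) and butyrophilin (Btn1a1) line the membrane of the milk fat globule. Casein genes respond to prolactin through its receptor Prlr, the kinase Jak2 and the transcription factors Stat5a and Stat5b, together with the ETS factor Elf5. Basal cells are the contractile layer around the ducts, and mature luminal (ML) cells carry the hormone receptors.

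On mouse build GRCm38, the 4 casein members lie in 1 stretch of chromosome 5, with Csn1s1 at chr5:87666208-87682578 on the plus strand, Csn2 at chr5:87692624-87699630 on the minus strand, Csn1s2a at chr5:87774567-87788797 on the plus strand, and Csn3 at chr5:87925579-87932665 on the plus strand. Trf lies at chr9:103204001-103230444, Wap at chr11:6635482-6638637, Btn1a1 at chr13:23456992-23465901, Lalba at chr15:98480400-98482721, Glycam1 at chr15:103562759-103565081 and Xdh at chr17:73883895-73950196, all on the minus strand. Because the 3 calcium-bound caseins Csn1s1, Csn1s2a and Csn2 tended to be counted in the same LP cells, their promoters are shown first, with those of the whey genes Lalba and Wap for contrast. Each window holds 250 bases before and 50 after the RefSeq start (GRCm38.p6), 5′ to 3′ on the gene's strand. Capitals mark matches to TTCNNNGAA, the palindrome bound by STAT factors, which reads the same on both strands.
Csn1s1: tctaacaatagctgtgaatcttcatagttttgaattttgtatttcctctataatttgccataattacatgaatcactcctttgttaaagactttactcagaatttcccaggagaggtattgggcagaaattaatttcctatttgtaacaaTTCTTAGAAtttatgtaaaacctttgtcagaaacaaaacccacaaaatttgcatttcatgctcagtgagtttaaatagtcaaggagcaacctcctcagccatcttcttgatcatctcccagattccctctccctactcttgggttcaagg
Csn2: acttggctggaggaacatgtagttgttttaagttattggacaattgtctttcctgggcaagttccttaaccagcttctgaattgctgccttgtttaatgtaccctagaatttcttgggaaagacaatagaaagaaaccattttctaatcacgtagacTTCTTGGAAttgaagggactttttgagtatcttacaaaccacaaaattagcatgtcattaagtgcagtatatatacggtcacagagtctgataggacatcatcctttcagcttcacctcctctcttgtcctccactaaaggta
Csn1s2a: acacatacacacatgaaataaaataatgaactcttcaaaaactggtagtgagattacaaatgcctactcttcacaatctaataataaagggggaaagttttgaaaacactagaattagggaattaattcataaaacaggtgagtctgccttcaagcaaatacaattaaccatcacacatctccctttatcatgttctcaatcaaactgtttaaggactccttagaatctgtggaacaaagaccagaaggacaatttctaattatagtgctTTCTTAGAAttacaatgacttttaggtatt
Lalba: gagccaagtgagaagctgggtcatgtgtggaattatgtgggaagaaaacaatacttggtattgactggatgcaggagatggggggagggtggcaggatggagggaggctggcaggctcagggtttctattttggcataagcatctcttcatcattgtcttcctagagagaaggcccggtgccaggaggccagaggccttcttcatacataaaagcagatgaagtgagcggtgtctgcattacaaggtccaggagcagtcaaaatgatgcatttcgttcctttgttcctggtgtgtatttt
Wap: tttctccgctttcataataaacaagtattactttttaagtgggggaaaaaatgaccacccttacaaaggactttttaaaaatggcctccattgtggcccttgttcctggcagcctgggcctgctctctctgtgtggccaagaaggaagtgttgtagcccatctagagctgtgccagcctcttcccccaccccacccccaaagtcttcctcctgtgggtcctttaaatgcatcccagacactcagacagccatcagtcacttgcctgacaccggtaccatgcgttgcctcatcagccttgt
The windows are chr5:87665958-87666257 for Csn1s1, chr5:87699376-87699675 for Csn2, chr5:87774200-87774499 for Csn1s2a, chr15:98482634-98482933 for Lalba and chr11:6638600-6638899 for Wap. The match began at base -100 from the RefSeq start in Csn1s1, at -93 in Csn2 and at base 20 after the RefSeq start in Csn1s2a. For Csn1s2a the 2 starts differ: its window ends at 87774499, before the gene start of 87774567 given above. Its match therefore lies upstream of that gene start. Of the 6 members with a window, 4 held a match, the other being Glycam1 at -145, and the windows of Lalba and Wap held none. Over all promoter windows of this length, 2726 of 32851 (8.298%) held at least 1 match. By gene, 2582 of 27025 (9.554%) had a match in at least 1 window. A match of letters is no evidence of binding, and no window was used for Csn3, Trf, Xdh and Btn1a1.

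The puberty stage had 2 deposited tables that shared 5387 barcodes, 99.2% of the first table, with per-cell totals correlated at 0.997, so they were treated as 1 library and the first table was used over the shared barcodes. The first puberty table held 25365324 counts. Estrus had 10962454 counts and diestrus 11868593.

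Cells were assigned to basal, LP and ML classes with marker signatures from which the 10 genes and the other milk genes were kept out. Another class, Lum Int, had both luminal programmes, and cells with basal and luminal markers (98, 33 and 40 cells in puberty, estrus and diestrus) were set aside as mixed. The LP class had 1752 cells from puberty, 470 from estrus and 564 from diestrus, with median depths of 3726.5, 3182.5 and 4049 counts per cell. Basal cells numbered 1119, 1305 and 1052, with medians of 2926, 2542 and 3393 counts, and ML cells 2197, 801 and 696. The 8 LP seed markers summed to between 4799.6 and 7783.5 CPM (counts per 1000000 counts of those cells) in LP cells and between 42.18 and 113.4 in basal cells, whereas the 8 basal seed markers summed to 58.49 to 162.7 CPM in LP cells. Immune markers summed to 2.52 to 19.46 CPM in LP cells. In the puberty library 104 of the 207 Lum Int cells were among those with the highest doublet scores.

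LP cells expressed 9 of the 10 genes in every library, and all 9 were far lower in basal and ML cells. Together the 10 genes summed to 63009 CPM in LP cells of puberty (6.30% of their counts), 50629 CPM in estrus (5.06%) and 18792 CPM in diestrus (1.88%), against 713.6, 215.7 and 192.1 CPM in basal cells. All 9 genes that could be tested were higher in LP than in basal cells, where 17.3% of all 11273 genes tested were higher and 17.8% lower (edgeR quasi-likelihood test over cells summed by class and library, adjusted p below 0.01 after Benjamini-Hochberg). The same 9 were higher in LP than in ML cells, against 16.2% of all genes. The median log2 difference of the 9 genes was 7.98 between LP and basal cells and 6.61 between LP and ML cells. The replicates of these tests were 3 libraries of different stages, so the p-values measure the spread of a lineage difference over those libraries.

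**Figure D1:**
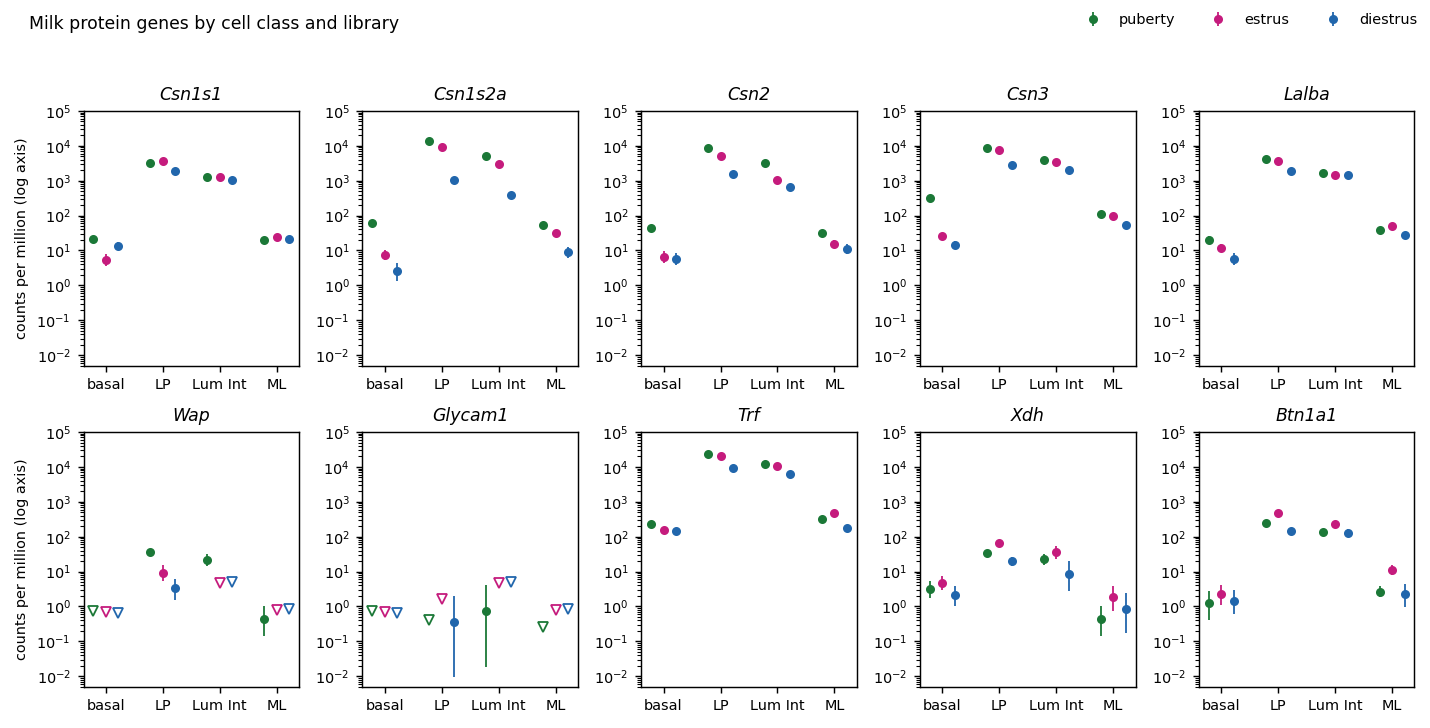
Level of each gene in CPM (log axis) in basal, LP, Lum Int and ML cells of the puberty, estrus and diestrus libraries, with exact Poisson 95% intervals; open triangles mark the level that 3 counts would give where none was counted. In every library the LP points of the 9 expressed genes lie above those of basal and ML cells, and Wap has no count in basal cells.

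Of the calcium-bound caseins, Csn1s1 reached 3272 CPM in LP cells of puberty, 3720 in estrus and 1874 in diestrus, against 21.2, 5.47 and 13.5 CPM in basal cells. The groups did not overlap, and the log2 difference was 7.98 ± 0.34 (SE from the edgeR F statistic, n = 3 libraries, edgeR adjusted p = 3.406e-11). Here and below, this SE uses the pooled and moderated spread of the fit. It is not the SE of the 3 library differences themselves. Csn1s2a stood at 14204, 9117 and 1035 CPM in LP cells of puberty, estrus and diestrus and at 62.2, 7.53 and 2.53 CPM in basal cells. Its difference was 8.83 ± 0.39 (edgeR adjusted p = 5.127e-11), and its LP level spread over the widest range of stages among the members above 50 CPM. Csn2, beta-casein, had 8883, 5169 and 1600 CPM in LP cells and 43.5, 6.61 and 5.68 CPM in basal cells. The puberty library was the highest for Csn2 in both classes, and the log2 difference was 8.53 ± 0.33 (edgeR adjusted p = 1.448e-11).

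Csn3 was counted in nearly every LP cell of puberty and estrus. Its LP level was 8527, 7378 and 2756 CPM in puberty, estrus and diestrus, and its basal level was 328.2, 25.5 and 14.3 CPM. The classes did not overlap, but the basal value of puberty stood well above those of both adult libraries. The log2 difference was 6.47 ± 0.61 (edgeR adjusted p = 3.420e-07), with the largest SE among the caseins.

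Of the whey proteins, Lalba had 4316, 3717 and 1898 CPM in LP cells and 20.4, 11.9 and 5.89 CPM in basal cells. Its log2 difference was 8.24 ± 0.29 (edgeR adjusted p = 5.506e-12). Wap was low before pregnancy, with 275 counts in puberty, 17 in estrus and 9 in diestrus over all LP cells, or 36.5, 9.36 and 3.31 CPM. Basal cells held no Wap count in any library, which allows up to 0.738 CPM in puberty by a limit of 3 counts, and the fitted difference of 9.16 ± 0.84 (edgeR adjusted p = 7.958e-07) is therefore no measure of size. The shares of LP cells with a Wap count were 5.02%, 2.55% and 1.42%, and in puberty these were 88 cells with up to 48 counts in 1 cell. Glycam1 was listed with 1 count in LP cells of diestrus and 1 in Lum Int cells of puberty, and none in the LP cells of puberty or estrus, which allows up to 0.398 and 1.65 CPM. Glycam1 entered no test.

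Trf was counted in 99.7%, 99.8% and 99.8% of LP cells of puberty, estrus and diestrus. It had 23495, 20984 and 9465 CPM in LP cells and 233.7, 151.6 and 146.7 CPM in basal cells, with a log2 difference of 6.77 ± 0.24 (edgeR adjusted p = 4.585e-12). The reads of Trf are less certain than those of the other members, since 37.0% of the 50-base words in the last 500 bases of its transcripts also belong to Gm20425, an overlapping readthrough gene of Trf and Srprb. Of the milk fat globule genes, Btn1a1 stood at 241.9, 469.6 and 141.0 CPM in LP cells and at 1.23, 2.28 and 1.47 CPM in basal cells. Btn1a1 was highest in estrus, unlike the caseins Csn1s2a, Csn2 and Csn3, and its log2 difference was 7.53 ± 0.30 (edgeR adjusted p = 2.038e-11). Xdh, an enzyme of purine breakdown in many tissues besides its part in the fat globule, had 33.7, 65.0 and 19.8 CPM in LP cells and 3.20, 4.79 and 2.10 CPM in basal cells. Its log2 difference of 3.70 ± 0.26 (edgeR adjusted p = 8.640e-09) was the smallest of the 9.

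Lum Int cells lay between LP and ML cells. The 10 genes summed to 27589 CPM in Lum Int cells of puberty, 21205 in estrus and 12149 in diestrus, and to 586.8, 709.6 and 301.8 CPM in ML cells. Of the 9 tested genes, 5 were higher in LP than in Lum Int cells, where 2.57% of all genes were. These were Csn2 (log2 difference 1.85), Csn1s2a (1.62), Csn1s1 (1.37), Lalba (1.11) and Trf (0.96), with edgeR adjusted p-values between 9.231e-05 for Csn2 and 0.002642 for Trf. The call was not reached for Csn3 (0.97, adjusted p = 0.2012), Wap (1.37, 0.06845), Btn1a1 (0.82, 0.01392) and Xdh (0.92, 0.02415). The part of 2-cell droplets in the Lum Int level was not tested.

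Between ML and basal cells the differences were small and depended on the library. Lalba (log2 difference 1.63, edgeR adjusted p = 8.062e-05), Btn1a1 (1.45, 0.009332) and Trf (0.79, 0.002185) were higher in ML than in basal cells, 3 of 9 against 21.1% of all genes. Xdh was lower in ML cells (-1.99, adjusted p = 0.0005132), 1 of 9 against 23.7% of all genes, on 5, 7 and 3 counts in ML cells and 13, 21 and 10 in basal cells. The caseins Csn1s1, Csn1s2a, Csn2 and Csn3 did not pass the test, with adjusted p-values from 0.08072 to 0.7667. The count of 3 fell to 1 without the estrus library and became 5 without the puberty library.

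The signal of these genes in basal cells was then set against genes of basal cells seen in LP cells. This yardstick runs in the opposite direction, and the total counts of the classes differed. LP and basal cells held 7539803 and 4065200 counts in puberty, 1816466 and 4385656 in estrus, and 2723341 and 4752777 in diestrus. The range of the basal genes is therefore not a like-for-like measure of stray LP RNA. RNA released from broken cells enters all droplets of a library, and within a library it keeps the genes of 1 source in 1 ratio in every cell type. For 7 basal genes kept out of classing, the level in LP cells was 0.323% of the basal level in puberty (median; range 0.191 to 0.650%). The median was 0.190% for estrus (0.0813 to 0.538%) and 0.320% for diestrus (0.172 to 0.5495%). In puberty the basal level relative to the LP level was 0.438% for Csn1s2a (interval 0.386 to 0.496%), 0.473% for Lalba (0.377 to 0.587%), 0.490% for Csn2 (0.421 to 0.568%) and 0.508% for Btn1a1 (0.165 to 1.19%). Csn1s1 stood at 0.647% (0.517 to 0.799%), also within the range of the basal genes in LP cells. In ML cells of puberty the level was 0.382% of the LP level for Csn1s2a and 0.363% for Csn2. It was 0.608% for Csn1s1, 0.895% for Lalba, 1.10% for Btn1a1 and 1.34% for Csn3. The counting intervals of Csn1s1 and Csn1s2a in basal cells did not overlap. These intervals treat counts as independent, so whether the members shared 1 ratio in puberty was not tested. Counts were uneven over the 1119 basal cells of puberty, with variance to mean ratios of 5.02 for Csn1s1 and 13.7 for Csn1s2a. The 11 cells with the most counts held 49.4% of the 253 counts of Csn1s2a, 54.6% of the 86 of Csn1s1, 59.3% of the 177 of Csn2 and 66.3% of the 83 of Lalba, with up to 46 Csn2 counts in 1 cell. The parts of stray RNA, of 2-cell droplets and of expression in these basal counts were not tested.

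In estrus the ratios of the calcium-bound caseins were lower, at 0.0825% for Csn1s2a (0.0568 to 0.116%), 0.128% for Csn2 (0.0856 to 0.184%) and 0.147% for Csn1s1 (0.0942 to 0.219%). Lalba (0.319%), Csn3 (0.346%) and Btn1a1 (0.486%) were also within the range of basal genes in LP cells. The counting intervals of Csn1s2a and Csn3 (0.285 to 0.417%) did not overlap. There too a shared ratio was not tested, and 13 basal cells held 68.75% of the Csn3 counts. In diestrus Csn1s2a (0.244%), Lalba (0.310%), Csn2 (0.355%) and Csn3 (0.519%) were within the range of the basal genes, and Csn1s1 (0.719%, interval 0.553 to 0.919%) was just above it. Btn1a1 stood at 1.05% in diestrus on 7 basal counts (0.417 to 2.17%).

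Of the 7 LP genes kept out of classing, those with at least 50 counts in LP cells, 6 in puberty and 5 in each adult library, had basal levels between 0.535 and 3.13% of the LP level in puberty, and up to 4.36% and 12.5% of it in the estrus and diestrus libraries. Lipg, another of the 7, went the other way, with 102, 77 and 54 counts in basal and 5, 2 and 1 in LP cells, and was lower in LP than in basal cells (log2 difference -4.60, edgeR adjusted p = 3.184e-06).

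Xdh, Trf and Csn3 stood above the range of the basal genes. The basal level of Xdh was 9.49% of its LP level in puberty (4.99 to 16.5%), while the value for estrus was 7.37% (4.40 to 11.8%) and that for diestrus 10.6% (4.82 to 21.1%), above the highest of the basal genes in each library, and no basal cell held more than 2 Xdh counts. Trf stood at 0.995% (0.932 to 1.06%), 0.723% (0.668 to 0.780%) and 1.55% (1.44 to 1.67%) in the same libraries, again above that range in each. Csn3 was at 3.85% in puberty (3.64 to 4.06%) but within the range in estrus and diestrus. Of the genes with at least 50 CPM in LP cells (2219, 2524 and 2568 in the puberty, estrus and diestrus libraries), the median basal level was 109%, 100.3% and 97.8% of the LP level, and 22, 44 and 28 genes were under 1%. Csn1s2a ranked 4, 6 and 1 from the lowest in the puberty, estrus and diestrus libraries.

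**Figure D2:**
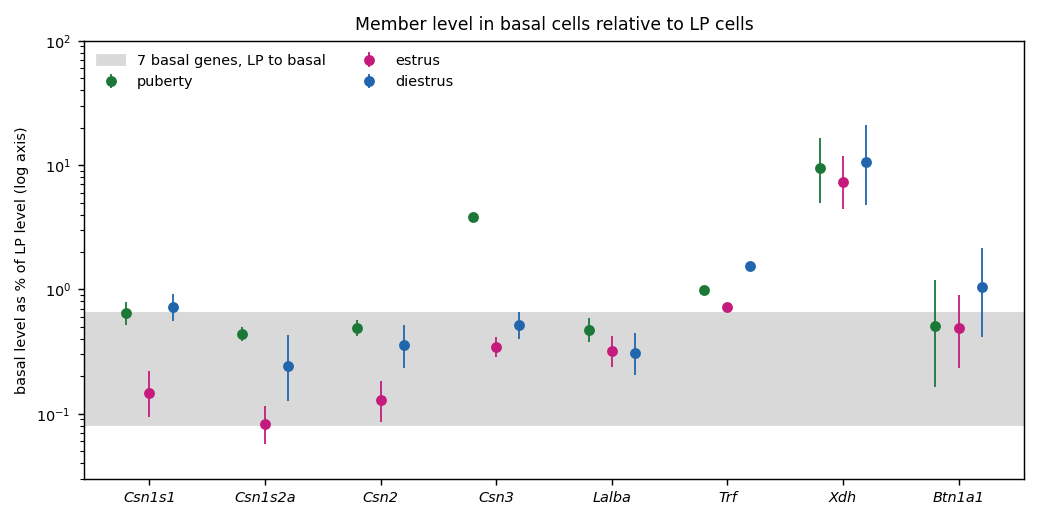
Basal level as a percent of the LP level (log axis) for each gene in the puberty, estrus and diestrus libraries, with exact 95% intervals on the counts; the grey band is the range of 7 basal genes in the opposite direction, LP to basal. Above the band lie Xdh (7.37 to 10.6%) and Trf (0.723 to 1.55%) in all libraries, Csn3 in puberty (3.85%), and Csn1s1 (0.719%) and Btn1a1 (1.05%) in diestrus.

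Shares of cells were also highest in LP cells. At least 1 count of the 10 genes was found in 99.89% of LP cells in puberty and 100% in estrus and diestrus. In basal cells the share was 52.7%, 33.6% and 40.0%, and in ML cells 47.7%, 23.8% and 23.8%. Basal cells thus had the larger share in each library, although the summed level of estrus and diestrus was higher in ML than in basal cells. With each cell thinned to 1500 counts the basal shares were 37.1%, 20.1% and 23.5% and the ML shares 23.6%, 13.5% and 11.6%, so the unthinned shares held a part set by depth. Basal cells with 10 or more counts of the 10 genes numbered 58, 5 and 10 in the puberty, estrus and diestrus libraries, and they held 55.8%, 18.0% and 19.9% of all basal counts of these genes.

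The puberty value of Csn3 in basal cells came from few cells, which were looked at after their values were seen. Of 1334 Csn3 counts, 79.8% lay in 73 cells with at least 5 counts (6.52% of basal cells), up to 105 counts in 1 cell, against 8 such cells in estrus and 2 in diestrus. Of the 73 cells, 52 held no count of Csn1s1, Csn1s2a, Csn2 or Lalba and 64 held at most 1, and 48 held no count of Spp1, one of the most counted LP genes. Of the 1046 other basal cells, 819 held none of these 4 genes, 995 held at most 1 count, and 816 held no Spp1. Summed over the 73 cells, Lalba (84.4 against 11.3 CPM), Csn1s1 (76.5 against 13.2), Csn2 (111.8 against 33.8), Spp1 (323.8 against 99.8) and Trf (533.7 against 190.7) were higher than in the other basal cells. These counts lay in few of the 73, with Lalba in 4 cells, Csn2 in 6, Csn1s1 in 12, Trf in 19 and Spp1 in 25. A single cell, among those with the highest doublet scores, held 33 of the 43 Lalba counts and 46 of the 57 Csn2 counts. Csn1s2a stood at 76.5 against 60.2 CPM. Of the 73, 4 were among the cells with the highest doublet scores, 33 had cell cycle genes, and their median depth was 6882 counts against 2782 in the other basal cells. In the second puberty table, made from the same cells, 54 basal cells had at least 5 Csn3 counts and 49 of them were among the 73.

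71 of the 73 cells fell in 1 of the 2 unsupervised basal clusters of puberty, which were made without the milk genes. This cluster held 353 cells, and Csn3 stood there at 610.8 CPM (577 to 646) and in 45.3% of cells, against 49.8 CPM (40.6 to 60.5) and 7.57% of cells in the other 766 basal cells. With cells thinned to 1500 counts the shares were 28.9% and 5.41%. The other members did not show a gap of this size: Csn1s2a was at 74.4 and 50.3 CPM, Csn2 at 59.99 and 27.3, Csn1s1 at 29.8 and 12.7 and Lalba at 26.8 and 14.2, whereas Trf was lower in the smaller cluster, at 131.4 against 334.4 CPM. The smaller cluster had less Krt14, a basal keratin (1119 against 8007 CPM), and less Oxtr, the oxytocin receptor (12.4 against 109.9), while Trp63, the basal transcription factor p63, stood at 93.7 and 63.5 CPM. It also had deeper cells (median 5423 against 2386 counts) and more cells with cell cycle genes (42.5% against 1.83%). Csn3 within it was 618.5 CPM in cells without and 603.8 CPM in cells with the cycle genes. The part of cycling in the Csn3 level was not tested.

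**Figure D3:**
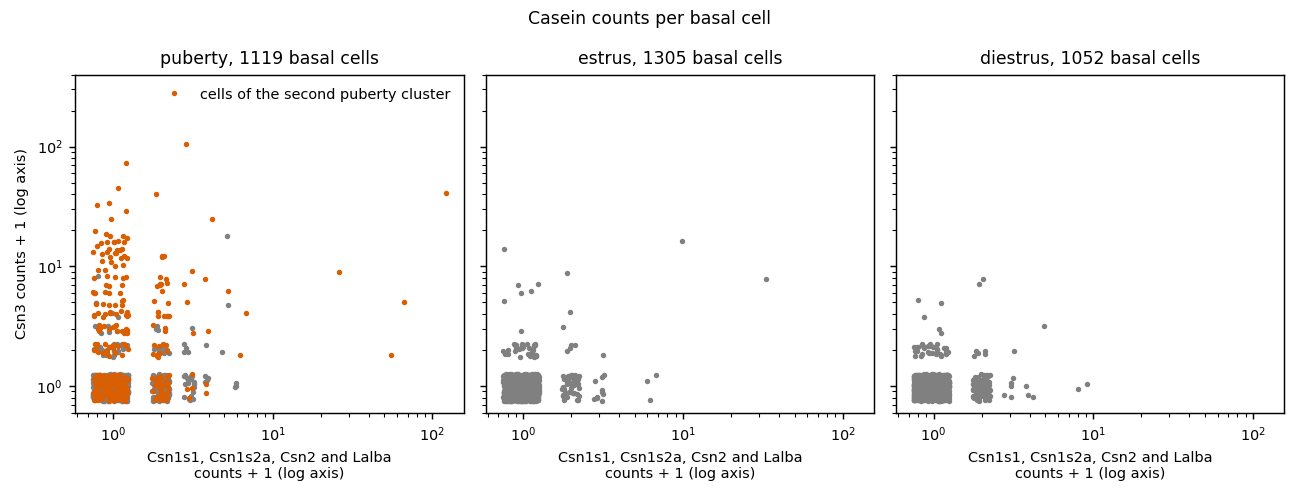
Csn3 counts plus 1 against the summed counts plus 1 of Csn1s1, Csn1s2a, Csn2 and Lalba in each basal cell (both axes log, points jittered) of puberty, estrus and diestrus; orange marks the puberty cluster of 353 cells. Many orange cells have 5 or more Csn3 counts with 0 or 1 count of the other genes, and adult libraries have few such cells.

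In LP cells the 9 expressed genes were lower in diestrus than in estrus by at least 2-fold on TMM-scaled CPM, where 5.22% of 2872 genes of at least 50 CPM were lower by that much and 7.76% were higher. Among the 8 members at that level all 8 were. The log2 ratio of diestrus to estrus was -3.21 for Csn1s2a (interval -3.27 to -3.15), -1.80 for Btn1a1, -1.76 for Csn2, -1.73 for Xdh (-2.27 to -1.30), -1.49 for Csn3, -1.33 for Wap on 9 and 17 counts (-2.92 to -0.32), -1.22 for Trf, -1.06 for Csn1s1 and -1.04 for Lalba. Csn1s1 and Lalba lay near the 2-fold limit and were inside it on library totals alone (-0.99 and -0.97) and without cycling cells (-0.93 and -0.54), where Trf was too (-0.89). The summed level had a ratio of -1.50 (-1.51 to -1.48), while the median over all genes was -0.01. In basal cells the summed ratio was -0.11 (-0.24 to 0.03) and in ML cells -1.03 (-1.13 to -0.93).

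Against diestrus, puberty LP cells had at least 2-fold more of all 9 genes, including 7 of 7 at 50 CPM or more, where 6.86% of 2887 genes were higher and 2.01% lower. Csn1s2a showed the widest gap, with a log2 ratio of 4.13 (17.5-fold), followed by Wap at 3.46 and Csn2 at 2.82. Csn1s1, Lalba, Btn1a1 and Xdh lay between 1.08 and 1.54. On library totals alone Csn1s1 (0.80), Btn1a1 (0.77) and Xdh (0.74) did not reach 2-fold. Between puberty and estrus the levels were closer, with 2 of 9 at least 2-fold higher in puberty, Csn2 at 1.06 (1.03 to 1.10) and Wap at 2.14 (1.54 to 3.05), and 1 of 8 at 50 CPM or more against 7.29% of 2893 genes. Btn1a1 (-0.67) and Xdh (-0.65) were lower in puberty than in estrus. The summed LP ratio of puberty to estrus was 0.60 with TMM scaling and 0.32 on library totals alone, and on totals alone Csn2 was no longer past 2-fold. Each stage was 1 library, so stage cannot be told apart from library, cell handling or the mice pooled.

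**Figure D4:**
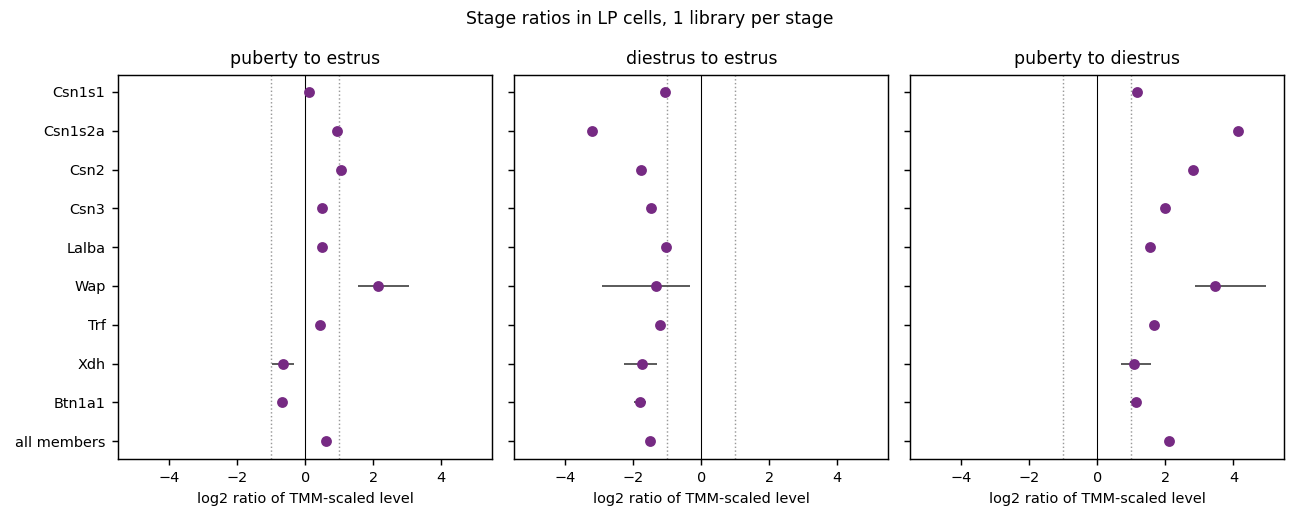
Log2 ratio of TMM-scaled CPM between stages for each gene in LP cells, in 3 panels (puberty to estrus, diestrus to estrus, puberty to diestrus), with 95% counting intervals; dotted lines mark 2-fold. All 9 expressed genes lie below -1 for diestrus to estrus and above 1 for puberty to diestrus.

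Within LP cells the genes differed in how widely they were found. Trf and Csn3 were found in most cells, Csn3 in 95.6% of puberty, 94.9% of estrus and 82.8% of diestrus LP cells. Csn1s2a was found in fewer, 37.8%, 36.4% and 32.6%, as was Csn2, in 32.5%, 28.5% and 39.2%, and the counts of both lay in few cells. Csn1s1 lay between, in 47.4%, 53.4% and 60.8% of LP cells. The top 10% of LP cells held 90.6%, 88.8% and 82.7% of Csn1s2a counts and 89.9%, 91.3% and 69.4% of Csn2 counts, against 33.4%, 29.1% and 32.1% of Trf counts. For Csn1s1 they held 69.6%, 63.9% and 50.2%, and for Csn3 40.2%, 41.7% and 50.7%, with Csn1s1 and Csn3 close to each other in diestrus. A single puberty cell held 3132 Csn1s2a counts and a single one 2335 Csn2 counts, while the highest Csn1s2a count in diestrus was 170. Csn1s2a was thus found in 36.4% of estrus and 32.6% of diestrus LP cells (thinned, 33.6% and 23.6%), while its log2 level was 3.21 lower in diestrus. For Lalba the share itself was lower in diestrus, 39.2% against 73.8% in estrus (thinned, 31.0% against 69.0%).

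The median LP cell gave 3.75% of its counts to the 10 genes in puberty, 3.16% in estrus and 1.42% in diestrus, and the highest cell 44.2%, 48.0% and 14.1%. LP cells with cell cycle genes gave a smaller part of their counts, 2.03% against 7.08% of the counts in the other LP cells of puberty, 2.40% against 5.43% in estrus and 0.961% against 2.38% in diestrus. Cycling cells were deeper, with medians of 7413.5, 10603.5 and 8255 counts against 3514.5, 3069 and 3469.5. Without cycling cells the summed diestrus to estrus ratio in LP cells was -1.21.

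**Figure D5:**
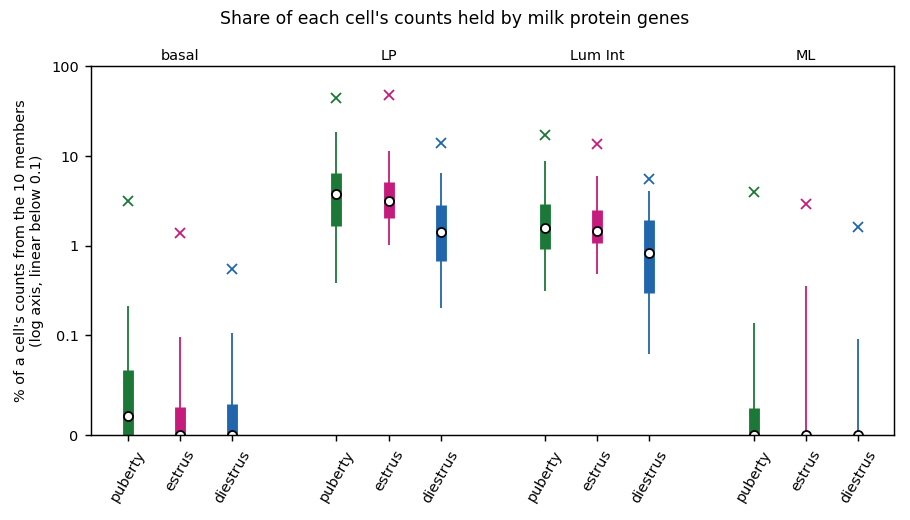
Percent of each cell's counts that came from the 10 genes, by class and library (symmetric log axis, linear near 0), as the 5, 25, 50, 75 and 95 percentiles with a cross for the highest cell. LP medians are 3.75, 3.16 and 1.42% in puberty, estrus and diestrus, and basal and ML cells sit near 0.

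Across LP cells the calcium-bound caseins were found together. The Pearson correlation of log2 counts per 10000 (plus 1) between Csn1s2a and Csn2 was 0.83 over 1752 puberty cells, 0.77 over 470 estrus cells and 0.66 over 564 diestrus cells. Csn1s1 correlated with Csn1s2a at 0.74, 0.73 and 0.59. Lalba correlated with Trf at 0.64, 0.50 and 0.62, and with Btn1a1 at 0.41, 0.36 and 0.60, whereas Csn2 with Lalba stood at 0.38, 0.32 and 0.03. These cells share their library and differ in depth, so the coefficients are descriptions of 3 libraries.

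Of 20 other genes of milk proteins and milk fat, 17 were tested, where 17.3% of all genes were higher in LP than in basal cells and 17.8% lower. Of the 17, 13 were higher in LP cells, none was lower and 4 did not pass (median log2 difference 4.64, against 0.00 over all genes). The largest were Spp1, osteopontin (8.73), Wfdc18 (7.74), Ltf, lactoferrin (7.07), Cel, bile salt lipase (6.97), Muc1, a mucin (6.43), Slc34a2, a phosphate transporter (5.36), Pigr, the immunoglobulin receptor (5.32), and Cidea, a lipid droplet protein (5.31). The fatty acid synthesis genes Fasn (0.47, edgeR adjusted p = 0.07871) and Acly (0.54, 0.01227) did not pass. Of the 20 genes, 8 reached 50 CPM in LP cells of estrus or diestrus. Ltf (log2 ratio -1.50) and Plin2 (-1.06) were at least 2-fold lower in diestrus than in estrus. Only Wfdc18 (2.30) was higher by that much, and Cel (0.79) rose by less. The median over the 8 was -0.76, against -1.61 for the members at that level. Wfdc18 had 632.0 CPM in LP cells of estrus, 3270 in diestrus and 3645 in puberty.

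Of 16 genes of lactogenic signalling and its transcription factors, 15 were tested, where 17.3% of all genes were higher in LP than in basal cells and 17.8% lower. Of the 15, 8 were higher in LP cells, 1 was lower and 6 did not pass (median 0.60). Elf5 was 7.70 higher (edgeR adjusted p = 9.301e-12) and its ETS relative Ehf 7.26 higher. Prlr was higher in LP than in basal cells (3.42, adjusted p = 3.053e-07) but lower in LP than in ML cells (-4.17, adjusted p = 2.797e-09), with 55.3, 60.6 and 41.1 CPM in LP and 889.7, 1552 and 905.5 CPM in ML cells of puberty, estrus and diestrus. Stat5a (1.01) and Stat5b (1.59) were also higher in LP than in basal cells, while Jak2 was not called (0.20, adjusted p = 0.6835). Between LP and ML cells none of Stat5a (-0.489, edgeR adjusted p = 0.06282), Stat5b (0.609, 0.04052) and Jak2 (-1.096, 0.01296) was called. Stat5a, Stat5b and Jak2 were higher in ML than in basal cells (edgeR adjusted p = 1.252e-05, 0.002657 and 0.002045). Socs3, a feedback inhibitor of cytokine signalling, was lower in LP than in basal cells (-2.84, adjusted p = 2.170e-09). Elf5 in LP cells stood at 275.9, 567.6 and 320.2 CPM in puberty, estrus and diestrus, highest in estrus, as Btn1a1 and Xdh were.

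Over the 12 sums of cells by class and library, the genes outside all lists most like the mean of the members, of 2199 compared, were Slc28a3 (Pearson r of 0.993), Sectm1a (0.990), Lbp (0.980), Cck (0.978) and Lipa (0.978). All 5 belong to the LP signature that was used to assign cells, which fixes part of this likeness.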

How the data were processed

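The authors made the deposited count tables with Cell Ranger 2.0 on build mm10, per the submitters' processing notes. Each value is a count of UMIs for a gene in a barcode, with no normalization, and barcodes were used as deposited with no filter on genes or mitochondrial counts. Seed cells were those whose z-score over 8 lineage genes exceeded the other lineages by 1. Signatures of up to 100 genes, at least 2-fold higher in the seeds and detected in at least 10% of them, then assigned all cells, with the milk and lactogenic genes kept out. Non-epithelial cells were set aside. They had 3 or more of the 5 markers of immune cells, of endothelium or of fibroblasts. The summed level of those markers also had to exceed that of the basal and luminal keratins. Cycling cells had at least 3 of 10 cell cycle genes. Doublet scores came from Scrublet, at 0.8% of cells per 1000 cells, and such cells were dropped only as an alternative.

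Counts were summed over 4 classes in 3 libraries and the 12 sums were fitted with edgeR 4.0.16 (quasi-likelihood F test, TMM, library as a block) in R 4.3.3, with Benjamini-Hochberg adjustment over all genes and a threshold of 0.01. DESeq2 1.42.0 was an alternative. The procedure was tested on simulated data. Labels name samples but not separate animals for the libraries. The p-values rest on the spread between 3 libraries of different stages, pooled over the 4 classes and moderated across genes. Each SE is the log2 difference in size divided by the square root of its F statistic. Between stages, TMM-scaled CPM with a pseudocount of 1 CPM were compared by size (2-fold), with exact Poisson, Clopper-Pearson and conditional binomial 95% intervals. Shares were repeated with each cell thinned to 1500 counts. Clusters came from scanpy 1.11.5 with the Leiden method. Python 3.11.15 was used.

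The named genes were the 10 members, up to 8 genes per list with the largest difference between LP and basal cells among those past the threshold, the prolactin receptor to Stat5 axis, and the 5 genes most like the members. The members and lists were chosen with earlier results of these data known.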

Additional observations from a re-analysis of the deposited data

Results flagged for a closer look

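The difference between ML and basal cells had opposite signs in puberty and in the adult libraries for the 4 caseins. In puberty the log2 ratio of ML to basal CPM was -0.088 for Csn1s1, -0.20 for Csn1s2a, -0.43 for Csn2 and -1.53 for Csn3. The interval of the ratio included 1 for Csn1s1 (0.941, 0.732 to 1.22) and Csn1s2a (0.871, 0.752 to 1.01) but not for Csn2 (0.740, 0.618 to 0.890) and Csn3 (0.347, 0.322 to 0.375). These intervals treat counts as independent. The 11 puberty basal cells with the most counts held 59.3% of the 177 Csn2 counts, and 1 of them, with a high doublet score, held 46. Whether the direction of Csn2 or Csn3 exceeds the spread between cells was not tested. In estrus the log2 ratio was 2.13, 2.11, 1.19 and 1.95 for the same genes, and in diestrus 0.66, 1.80, 0.998 and 1.88. With 1 library per stage the difference between stages was not tested. Csn3 had 1334 counts in basal and 1322 in ML cells of puberty, 112 and 380 in estrus, and 68 and 186 in diestrus.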

How the results depend on the processing

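All 9 tested genes were higher in LP than in basal cells under all 13 alternatives, and 9 were higher in LP than in ML cells except with DESeq2, where 8 were. Leaving out each library in turn gave 9 to 9 for both. The count of 3 genes higher in ML than in basal cells was 5 with no filter on low counts, 0 with no library block, 0 with seed cells only, 6 with Leiden clusters, 1 without doublet-scored cells and 1 to 5 with each library left out. It was 6 without basal cells of 10 or more milk gene counts, an alternative chosen after seeing the data, as were the checks of Csn3 in basal cells. Single ML to basal log2 differences turned negative for Wap without the puberty library (-0.082), for Csn3 without estrus (-0.42), without diestrus (-0.32), with no library block (-0.52) and without doublet-scored cells (-0.013), and with seed cells only for Csn1s1 (-0.029), Csn2 (-0.32) and Trf (-0.24). With each library left out in turn the differences of Csn3 and Wap ranged from -0.42 to 1.85 and from -0.082 to 3.11. The cause was not tested.

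The summed LP log2 ratio of diestrus to estrus was -1.43 without TMM, -1.45 with the second puberty table, -1.32 with seed cells, -1.48 with Leiden clusters, -1.21 without cycling cells and -1.63 in cells of at least 1000 genes and under 10% mitochondrial counts. In the same order of settings puberty to estrus was 0.32 without TMM, 0.79 with seed cells, 0.59 with Leiden clusters, 0.59 without doublet-scored cells and 0.70 without cycling cells, and puberty to diestrus was 1.75 without TMM, 2.05 with the second table, 2.06 with Leiden clusters, 1.91 without cycling cells and 2.23 with the cell filter. The genes at least 2-fold higher in puberty than estrus numbered 1 to 3 over the alternatives, with 1 without TMM and 3 with seed cells only and without cycling cells, where Csn1s2a reached 1.12 and 1.01. Those lower in diestrus than estrus numbered 6 to 9 over the alternatives, with 6 without cycling cells, and those higher in puberty than diestrus also 6 to 9, with 6 without TMM. In basal cells diestrus to estrus was -0.29 with Leiden clusters, 0.067 without doublet-scored cells and 0.24 without cycling cells. Puberty to estrus was 1.72 without TMM, 2.39 with seed cells, 2.74 with Leiden clusters, 1.62 without cycling cells, 2.07 with the cell filter and 1.14 without basal cells of many milk gene counts, and puberty to diestrus was 2.50 with seed cells, 3.03 with Leiden clusters, 1.79 without doublet-scored cells, 1.38 without cycling cells, 2.24 with the cell filter and 1.27 without those basal cells.

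Thinned to 1500 counts, shares of cells with a count were 37.1%, 20.1% and 23.5% in basal, 23.6%, 13.5% and 11.6% in ML cells, and 99.3% in LP cells of diestrus. The median basal to LP level was 0.806% in puberty with seed cells, 0.389% without doublet-scored cells and 0.282% without basal cells of many milk gene counts. In that order it was 0.143%, 0.211% and 0.186% in estrus and 0.457%, 0.579% and 0.5501% in diestrus. No paired analysis between stages was possible because each stage was 1 library and the labels give no replicate number that links stages. Depth limits Wap, Xdh and Glycam1, with 9, 54 and 1 counts in LP cells of diestrus.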
